A study of Mus musculus with 12 samples.

Results

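The genes described here are 8 red blood cell and erythroid genes measured in mouse liver, chosen by name out of 20719 genes tested: Alas2, Car1, Hba-a1, Ahsp, Slc4a1, Kel, Rhag and Klf1. Each had 1 line in the annotated table, and all 8 were found. Gene expression was measured on 12 whole-transcript arrays, 1 per mouse, 3 for each of the 4 groups, which were wild-type (WT) fed, WT starved, knock-out (KO) fed and KO starved. All mice received standard chow, and the starved ones had then been without food for 24 h with free access to water. The KO came from transgenic C57BL/6 mice carrying Albumin-Cre, bred with mice in which loxP sequences flank exon 9A of the lamp2 gene, which encodes a lysosomal membrane protein. Albumin-Cre acts in hepatocytes and not in the blood or vessel cells of the same piece of liver. The labels describe the KO as deficient in chaperone-mediated autophagy, the uptake of single cytosolic proteins into lysosomes. They give neither age nor sex, and do not say whether WT mice carried Cre or loxP.

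Red blood cells arise from erythroid precursors that make haem and globin in bulk, lose their nucleus and enter the blood as reticulocytes, which still hold RNA for a short time. In the adult mouse this takes place in bone marrow and spleen, whereas the liver is the main site before birth. An adult liver sample therefore carries red cell RNA mainly with its blood, although some genes known from red cells are also made by liver cells. In a bulk sample, fewer cells of a type and less RNA per cell cannot be told apart.

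Promoters are shown for Alas2, the only member whose fall on starvation passed the test in both genotypes. Also shown are those of Hba-a1 and Klf1, a globin and an erythroid transcription factor whose differences did not pass the test. They are RefSeq sequences of build GRCm38.p6, 5′ to 3′ on the strand of the gene, from 250 bases before to 50 bases after the gene's start: chrX:150547167-150547466 (+) for Alas2, chr11:32283422-32283721 (+) for Hba-a1 and chr8:84901732-84902031 (+) for Klf1. Capitals mark matches on either strand to the GATA motif AGATAA with its variant AGATAG and the GATA motif TGATAA with its variant TGATAG, which the erythroid factor GATA1 binds, and to the CACC motif CCACACCC with its looser form CCNCNCCC, of the kind KLF1 binds.
Alas2: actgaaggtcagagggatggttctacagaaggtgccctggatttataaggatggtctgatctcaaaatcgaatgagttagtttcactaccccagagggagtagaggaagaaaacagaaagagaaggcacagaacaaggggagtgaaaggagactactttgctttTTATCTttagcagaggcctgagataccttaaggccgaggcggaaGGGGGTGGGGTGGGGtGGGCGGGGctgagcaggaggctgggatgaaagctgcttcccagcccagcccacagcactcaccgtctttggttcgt
Hba-a1: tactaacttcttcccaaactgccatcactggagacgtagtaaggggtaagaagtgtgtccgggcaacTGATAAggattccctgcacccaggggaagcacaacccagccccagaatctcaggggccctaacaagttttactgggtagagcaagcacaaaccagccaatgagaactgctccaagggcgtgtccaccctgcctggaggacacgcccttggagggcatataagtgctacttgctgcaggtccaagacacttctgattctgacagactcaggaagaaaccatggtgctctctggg
Klf1: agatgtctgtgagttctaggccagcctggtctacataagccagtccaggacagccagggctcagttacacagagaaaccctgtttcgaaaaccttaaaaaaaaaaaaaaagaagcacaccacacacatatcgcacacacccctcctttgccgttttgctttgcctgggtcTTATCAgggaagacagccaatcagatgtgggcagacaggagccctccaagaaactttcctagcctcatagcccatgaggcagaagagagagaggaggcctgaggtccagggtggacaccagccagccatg
The Alas2 promoter held 1 GATA match, which began at position -86 from the start, and 4 closely spaced CACC matches, 3 of which overlap. The Hba-a1 and Klf1 promoters held 1 GATA match each and 0 CACC matches. Of the members whose promoters are not printed, Kel had 2 GATA matches and Rhag had 1, both with 0 CACC matches, and Ahsp, Car1 and Slc4a1 had no entry in the table used. Among 32851 promoters of the same length, 29.8% held a GATA match, 7.77% held 2 or more, 49.5% held a CACC match and 10.2% held both kinds. A match is a description of letters and not of a bound site.

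All values are on the deposited log2 scale, where 1 unit is 2-fold. Differences are given with their SE from limma, and adjusted p-values are limma's with Benjamini-Hochberg adjustment over all 20719 genes, called under 0.05. The median SE over all genes was 0.15 for a difference between 2 groups. The arrays differed in the spread of their values: the SD over genes lay between 2.128 and 2.155 in 6 arrays, called wide here (WT fed F1, WT starved S3 and S4, KO fed F6, KO starved S6 and S7), and between 1.996 and 2.082 in the other 6, called narrow. Each group held both kinds, but starved groups held 2 wide arrays each and fed groups 1. Within-kind values are given for some genes only, and genes without them may also differ by kind. Hepatocyte markers had mean values from 13.53 to 13.92 in every array. The erythroid transcription factor Gata1 read 5.21 to 5.68, and Epor, the erythropoietin receptor, read 6.17 to 6.40. Such low values cannot be told from no expression, since no background signal was used. Member means over all arrays ran from 4.28 for Rhag to 12.55 for Hba-a1, with Alas2 at 9.87 and Car1 at 9.72.

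Starvation of WT mice went with a fall of 2 of the 8 genes, Alas2 and Car1, and a rise of none; 1.41% of all genes were called in this comparison. In 3 of the 8 (Alas2, Car1 and Rhag) all starved arrays lay below all fed arrays, and groups that do not overlap made up 13% of all genes. Rhag, with a mean of 4.28 over all arrays, read lower than Gata1 and cannot be told from no expression. The median difference of the 8 was -0.09, against -0.01 over all genes. In KO mice 1 of the 8, Alas2, was called lower on starvation and none higher, where 1.02% of all genes were called. An unadjusted limma p under 0.05 was found for 2 of the 8 in WT mice, Alas2 and Car1, beside 12.7% of all genes. In KO mice it was found for 6, beside 9.32% of all genes, with Alas2 and Car1 lower and Ahsp, Slc4a1, Hba-a1 and Klf1 higher. In 4 of the 8 the KO groups did not overlap, with Alas2 and Car1 lower and Ahsp and Klf1 higher in starved arrays, against 16.5% of all genes. The median of the 8 was 0.32 in KO mice, against -0.03 over all genes.

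**Figure D1:**
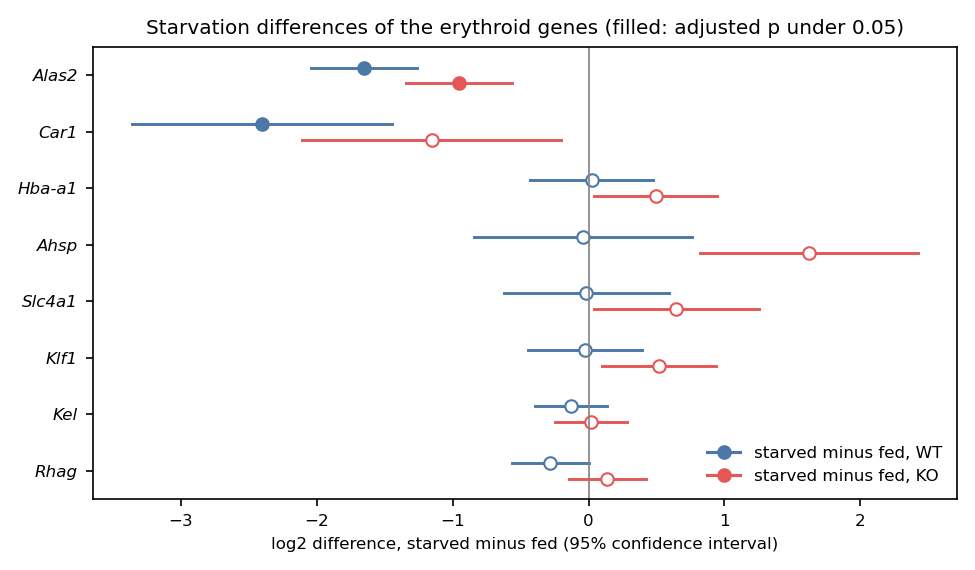
The horizontal axis is the log2 difference between starved and fed mice (starved minus fed), with its 95% confidence interval, for the 8 erythroid genes in WT (blue) and KO (red) mice; filled points have a limma adjusted p under 0.05. Alas2 is filled in both genotypes and Car1 in WT, whereas Ahsp lies at -0.04 in WT and at 1.62 in KO mice with an open point.

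Between genotypes no member was called. In fed mice 0 of the 8 passed limma's test and 0 had an unadjusted p under 0.05, with 0% of all genes called and 2.91% under that unadjusted limit, and 0 members had groups that did not overlap, against 7.97% of all genes. The fed differences (KO minus WT) lay between -0.38 for Klf1 and 0.09 for Car1. In starved mice 0 passed and 3 had an unadjusted p under 0.05 (Ahsp, Car1 and Slc4a1), with 0% of all genes called and 3.59% under the unadjusted limit. All 8 differences between starved genotypes were above 0, with a median of 0.38 against -0.03 over all genes, and in Ahsp and Car1 the KO arrays lay wholly above the WT arrays, 2 of 8 against 9.81% of all genes. Within wide arrays all 8 of these differences were above 0, and within narrow arrays 4 were (Ahsp, Alas2, Car1 and Rhag) and 4 were below 0. Those of Ahsp were 2.11 within wide and 0.45 within narrow arrays, and those of Slc4a1 were 1.22 and -0.31. For the interaction, the KO response minus the WT response to starvation, 0 members passed limma's test. The unadjusted limma p was under 0.05 for 3 (Ahsp, Alas2 and Rhag, the last at low values). Of all genes 0% were called and 2.04% were under the unadjusted limit. These comparisons share samples, so their values are not separate evidence.

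Averaged over the genotypes, 2 of the 8 genes were called lower on starvation, Alas2 and Car1, and none higher, where 5.16% of all genes were called. The unadjusted limma p was under 0.05 for 3 members (Alas2, Car1 and Ahsp), beside 17.7% of all genes. For the averaged genotype difference 0 members passed limma's test and 2 had an unadjusted p under 0.05 (Ahsp and Car1), where 0% of all genes were called and 4.65% were under the unadjusted limit.

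Alas2 encodes the erythroid form of 5-aminolevulinate synthase, which catalyses the first step of haem synthesis. Its values were 10.68, 10.44 and 10.93 in WT fed mice, 9.07, 8.63 and 9.39 in WT starved mice, 10.45, 10.24 and 10.36 in KO fed mice and 9.40, 9.43 and 9.36 in KO starved mice. Every starved array lay below every fed array, and the KO starved arrays lay closest together. The difference between starved and fed mice was -1.65 (SE 0.18, adjusted p = 0.00238) in WT and -0.96 (SE 0.18, adjusted p = 0.0294) in KO mice, which are 3.14-fold and 1.94-fold lower levels. Averaged over genotypes it was -1.30 (SE 0.13, adjusted p = 0.000266). The interaction was 0.70 (SE 0.25, 95% confidence interval 0.15 to 1.25, adjusted p = 1), and did not pass the test. Within wide arrays the differences were -1.82 in WT and -0.85 in KO mice, and within narrow arrays -1.30 and -1.01. The KO call was lost in limma when any 1 of the 6 KO arrays was left out, with differences from -1.01 to -0.91, and also with eBayes set to trend and robust (adjusted p = 0.0526) and in narrow or wide arrays alone (adjusted p = 0.106 and 0.116). In WT the adjusted p was 0.0905 when only the WT arrays were fitted and 0.0626 when only the narrow arrays were.

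**Figure D2:**
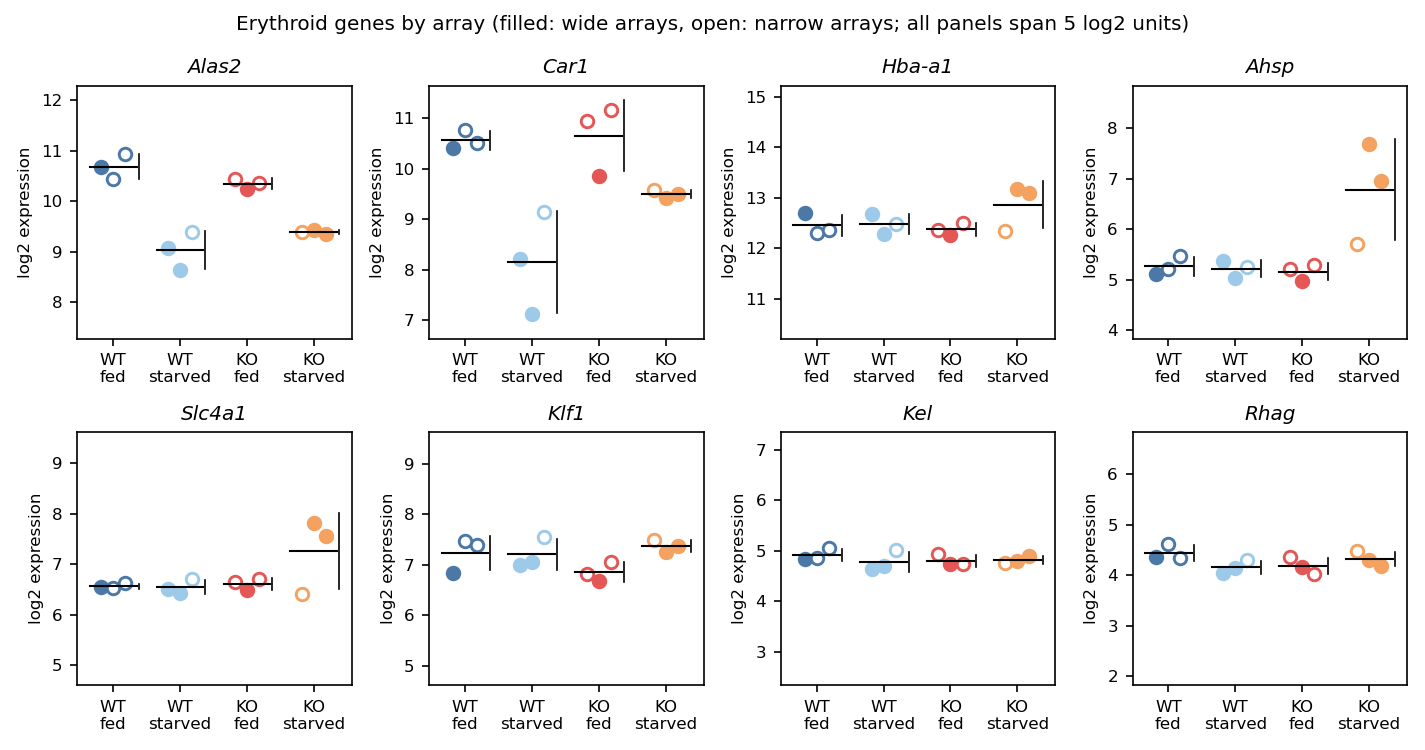
Each panel plots the log2 expression value (vertical axis, 5 units in every panel) of 1 gene in the 12 arrays by group, with filled points for wide and open points for narrow arrays, a horizontal line at the mean and a vertical bar for the SD of 3 mice. Alas2 and Car1 are lower in both starved groups, and Ahsp, Slc4a1 and Hba-a1 are highest in the 2 wide KO starved arrays.

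Haem is made in mitochondria and cytosol by a chain of enzymes served by mitochondrial carriers. Of 15 such genes measured, 2 fell on starvation in WT mice, Alas2 and Slc25a37, and 1 fell in KO mice, Alas2, beside 1.41% and 1.02% of all genes called, with a list median of -0.25 in WT and -0.08 in KO mice. Slc25a37 encodes mitoferrin, which brings iron into mitochondria of erythroid cells. Its values were 8.71, 8.48 and 8.36 in WT fed mice, 7.74, 7.65 and 7.51 in WT starved mice, 8.15, 8.52 and 8.17 in KO fed mice and 7.42, 8.09 and 8.04 in KO starved mice. Starved arrays lay below the fed arrays of their genotype in each case. The difference was -0.88 in WT (SE 0.18, adjusted p = 0.0412) and -0.42 in KO mice (SE 0.18, adjusted p = 0.484), and -0.65 averaged over genotypes (SE 0.13, adjusted p = 0.0137). The WT call was lost in 13 of 24 alternative settings, and over all 24 the difference ran from -1.01 to -0.71. The KO difference was -0.21 without KO starved S5 and -0.73 within narrow arrays, and it was called with array spread as a block (adjusted p = 0.0131). Abcb10, a mitochondrial inner membrane transporter known to act with mitoferrin, fell in the averaged comparison by 0.58 (SE 0.14, adjusted p = 0.0338). Its call was lost in 7 of 23 alternatives. The differences in the single genotypes were -0.68 in WT and -0.48 in KO mice, both uncalled, and in WT it was -1.13 within wide and -0.44 within narrow arrays.

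Alas1, which carries out the same first step outside the erythroid lineage and is the form hepatocytes rely on, had values of 11.54, 10.83 and 11.27 in WT fed mice, 12.01, 12.33 and 11.04 in WT starved mice, 11.84, 11.73 and 10.55 in KO fed mice and 11.24, 11.47 and 11.74 in KO starved mice. The groups overlapped in both genotypes. Its differences were 0.58 (SE 0.38, adjusted p = 0.576) in WT and 0.11 (SE 0.38, adjusted p = 0.979) in KO mice. Of the remaining steps, Cpox, coproporphyrinogen oxidase, had uncalled differences of 0.81 and 0.77, and Fech, ferrochelatase, which inserts the iron, of 0.00 and -0.13.

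**Figure D3:**
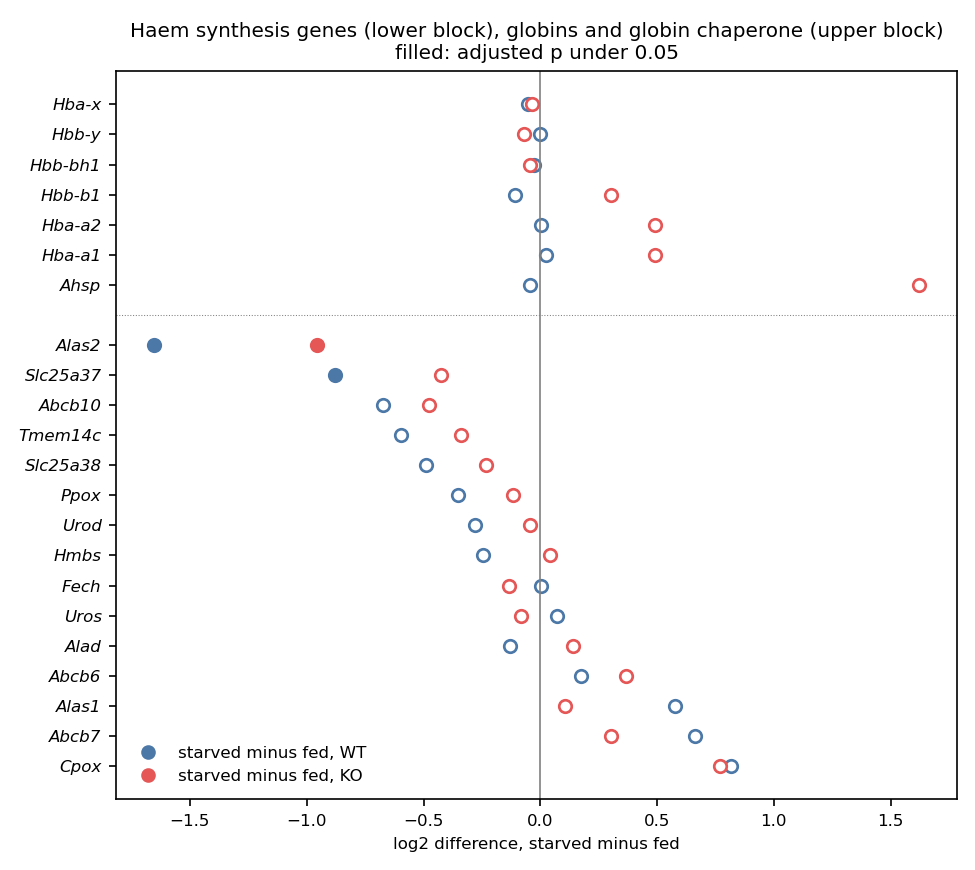
The horizontal axis is the log2 difference between starved and fed mice (starved minus fed) in WT (blue) and KO (red) for the genes of haem synthesis (lower block) and for the globins and Ahsp (upper block); filled points have a limma adjusted p under 0.05. In the lower block Alas2 and Slc25a37 are filled, and in the upper block no point is.

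Car1 encodes carbonic anhydrase I, an abundant enzyme of red cells that interconverts carbon dioxide and bicarbonate. Its values were 10.42, 10.76 and 10.50 in WT fed mice, 8.20, 7.11 and 9.14 in WT starved mice, 10.95, 9.85 and 11.16 in KO fed mice and 9.58, 9.43 and 9.49 in KO starved mice. All starved arrays lay below all fed arrays, and all KO starved arrays lay above all WT starved arrays. The difference between starved and fed mice was -2.41 (SE 0.44, adjusted p = 0.0243) in WT, a 5.30-fold lower level, and -1.16 (SE 0.44, adjusted p = 0.372) in KO mice, and -1.78 (SE 0.31, adjusted p = 0.00712) averaged over genotypes. The WT starved values ranged over more than the fed values (SD 1.02 against 0.18, n = 3 each). In KO mice the order was reversed (SD 0.08 in starved against 0.71 in fed mice). In WT the call was lost in limma without F2, F4, S3 or S4, with an adjusted p from 0.0698 to 0.0877, and the difference without S4 was -1.89. When only the WT arrays were fitted, the adjusted p was 0.131. Within narrow arrays it was -1.49 in WT and -1.48 in KO mice, and within wide arrays -2.76 and -0.39. In KO mice the fall was called with array weights (adjusted p = 0.000359 in limma), a setting that called 36.9% of all genes in that comparison. Between starved genotypes the difference was 1.34 (95% confidence interval 0.39 to 2.30, adjusted p = 1), and it was 1.80 within wide and 0.43 within narrow arrays.

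Among the other red cell enzymes, Blvrb, biliverdin reductase B, rose in the averaged comparison by 0.39 (SE 0.09, adjusted p = 0.025), with differences of 0.35 in WT and 0.42 in KO mice that were not called alone. The averaged call was lost in 8 of 23 alternatives. Of the 6 enzymes measured, 1 fell in WT and 0 were called in KO mice by limma's test, beside 1.41% and 1.02% of all genes. The paralogue Car2 had differences of -0.06 in WT and 0.36 in KO mice, neither called.

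Hba-a1 encodes the adult alpha chain of haemoglobin. Its values were 12.69, 12.31 and 12.37 in WT fed mice, 12.69, 12.28 and 12.48 in WT starved mice, 12.36, 12.26 and 12.51 in KO fed mice and 12.34, 13.18 and 13.09 in KO starved mice. The last group's S6 and S7 lay above every other array, and its S5 lay among the fed values. The difference between starved and fed mice was 0.02 (SE 0.21, 95% confidence interval -0.43 to 0.48) in WT and 0.49 (SE 0.21, 0.04 to 0.95, adjusted p = 0.465) in KO mice. Within wide arrays the KO difference was 0.88, and within narrow arrays it was -0.09. The neighbouring copy Hba-a2 differed from Hba-a1 by at most 0.06 in any array, so the 2 copies cannot be told apart here. Hbb-b1, an adult beta chain, read 12.93, 13.31 and 13.28 in KO starved mice, against 12.34 to 13.12 in the other arrays, with S6 and S7 again the highest of all. Its difference was -0.11 in WT and 0.30 in KO mice, neither called. Within wide arrays the Hbb-b1 differences were -0.22 and 0.71, and within narrow arrays 0.18 and -0.08. The embryonic and fetal-type globins Hba-x, Hbb-bh1 and Hbb-y had differences between -0.07 and 0.00 in both genotypes. Of the 7 genes measured among globins and globin chaperone, 0 were called by limma in any of the 7 comparisons.

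Ahsp encodes the alpha haemoglobin stabilising protein, a chaperone that holds free alpha chains until they pair with beta chains. Its values were 5.12, 5.20 and 5.47 in WT fed mice, 5.37, 5.04 and 5.25 in WT starved mice, 5.20, 4.98 and 5.30 in KO fed mice and 5.71, 7.69 and 6.95 in KO starved mice. All KO starved arrays lay above the other 9, S5 by a small margin and S6 and S7 by more than 1 unit. The difference between starved and fed mice was -0.04 (SE 0.37) in WT and 1.62 (SE 0.37, 95% confidence interval 0.82 to 2.42, adjusted p = 0.0682) in KO mice. Between starved genotypes it was 1.56 (SE 0.37, unadjusted p = 0.00123, adjusted p = 1 in limma), and the interaction was 1.66 (SE 0.52, unadjusted p = 0.0079, adjusted p = 1). Within wide arrays the KO difference was 2.34, and within narrow arrays 0.46. With array spread as a block the KO difference was 1.53 and was called (adjusted p = 0.025 in limma), and without KO starved S5 it was 2.16 and was called (adjusted p = 0.00265). S5 was the only narrow array of the KO starved group. Leaving out 1 array at a time gave KO differences from 1.17 to 2.16.

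Slc4a1 encodes the anion exchanger of the red cell membrane, which swaps bicarbonate for chloride and anchors the membrane skeleton. Its values were 6.55, 6.53 and 6.62 in WT fed mice, 6.51, 6.43 and 6.71 in WT starved mice, 6.64, 6.48 and 6.71 in KO fed mice and 6.40, 7.81 and 7.57 in KO starved mice. KO starved S6 and S7 lay above all other arrays and S5 was the lowest of all 12. The difference between starved and fed mice was -0.02 (SE 0.28) in WT and 0.65 (SE 0.28, adjusted p = 0.484) in KO mice, and the latter was 1.20 within wide arrays and -0.28 within narrow ones. Without KO starved S5, the only narrow array of its group, it was 1.08 (adjusted p = 0.00988 in limma). Leaving out 1 array at a time gave KO differences from 0.37 to 1.08.

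**Figure D4:**
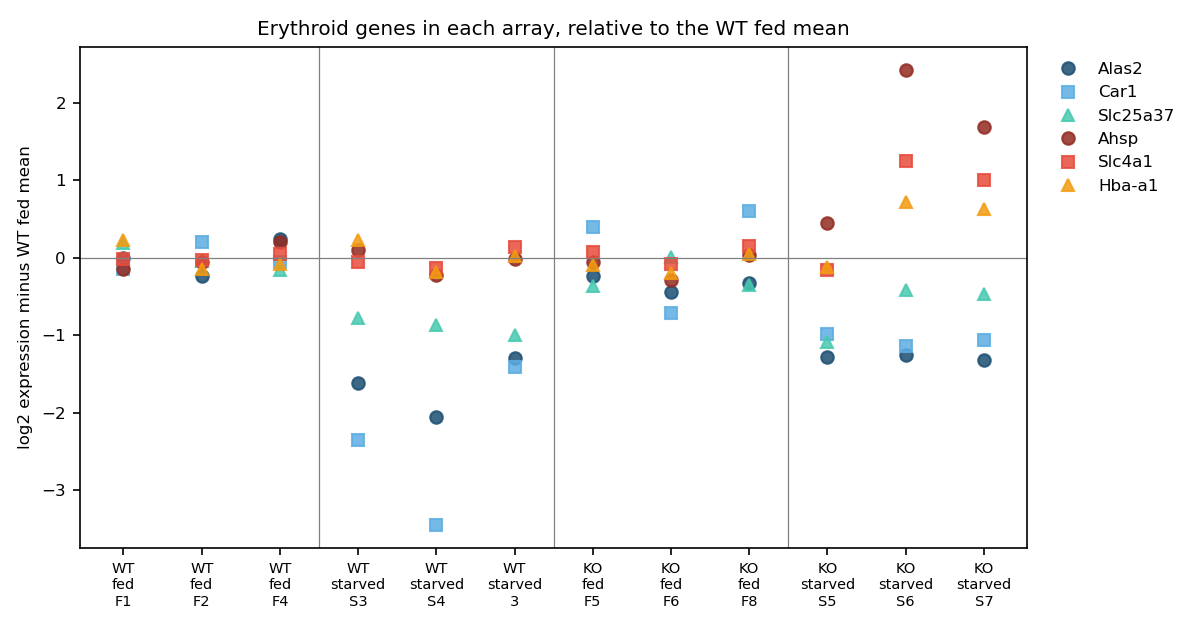
The vertical axis is the log2 expression value less the mean of the 3 WT fed arrays, and each column is 1 array, grouped by genotype and feeding state. Alas2, Car1 and Slc25a37 lie below 0 in all 6 starved arrays, whereas Ahsp, Slc4a1 and Hba-a1 lie together well above 0 in KO starved S6 and S7.

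The other membrane members had low values that varied little. Kel encodes the Kell blood group protein, a membrane metalloprotease, and read 4.83, 4.86 and 5.05 in WT fed mice, 4.64, 4.70 and 5.01 in WT starved mice, 4.93, 4.73 and 4.73 in KO fed mice and 4.75, 4.79 and 4.9 in KO starved mice. These groups overlapped in all 4 comparisons of 2 groups. Rhag encodes the Rh-associated glycoprotein, a gas and ammonium channel of the red cell membrane, and read 4.36, 4.62 and 4.34 in WT fed mice, 4.04, 4.14 and 4.30 in WT starved mice, 4.36, 4.16 and 4.03 in KO fed mice and 4.47, 4.31 and 4.18 in KO starved mice. WT starved arrays lay below WT fed arrays by a narrow margin, with a difference of -0.28 (SE 0.13, adjusted p = 0.401 in limma). Of 23 genes of the red cell membrane and its skeleton, 0 were called by limma in either genotype alone, beside 1.41% and 1.02% of all genes. In the averaged comparison 1 rose, Epb4.1, a skeletal linker protein, by 1.03 (SE 0.25, adjusted p = 0.0402), and 1 fell, the tetraspanin Tspan33, by 0.53 (SE 0.10, adjusted p = 0.00969), where 5.16% of all genes were called. The call of Epb4.1 was lost in 10 of 23 alternatives, over which its difference ran from 0.68 to 1.32, and that of Tspan33 in 1 of 23.

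Klf1 encodes a zinc finger factor that activates beta globin and many other erythroid genes. Its values were 6.84, 7.46 and 7.39 in WT fed mice, 6.999, 7.06 and 7.55 in WT starved mice, 6.81, 6.68 and 7.06 in KO fed mice and 7.49, 7.26 and 7.36 in KO starved mice. The WT groups overlapped, and the KO starved arrays lay above the KO fed arrays but within the range of the WT arrays. The difference was -0.03 (SE 0.19) in WT and 0.52 (SE 0.19, adjusted p = 0.358) in KO mice. The KO difference was 0.63 within wide and 0.56 within narrow arrays, and with array spread as a block it was 0.65 and was called (adjusted p = 0.00711 in limma). In WT mice the narrow arrays read 7.39 to 7.55 and the wide arrays 6.84 to 7.06.

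Of 13 erythroid transcription factors measured, Klf1 included, 1 rose on starvation in WT mice and 0 were called by limma in KO mice, beside 1.41% and 1.02% of all genes. The one that rose was Ldb1, an adaptor that joins erythroid factors into 1 complex and is also made in many other cells, with a difference of 0.78 (SE 0.11, adjusted p = 0.0094) in WT and 0.54 (SE 0.11, adjusted p = 0.055) in KO mice. Nfe2, the blood cell subunit of the factor NF-E2, fell in the averaged comparison by 0.45 (SE 0.11, adjusted p = 0.0356), a call that was lost in 11 of 22 alternatives. Gata1 had differences of -0.03 in WT and -0.11 in KO mice.

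Upstream of these factors, the hormone erythropoietin drives red cell formation, and precursors take up iron through the transferrin receptor. Epo, which the adult kidney and to a lesser extent the liver make, read 4.54 to 5.26 over all arrays, with differences of -0.10 in WT and 0.21 in KO mice. Its receptor Epor had differences of 0.00 and 0.06. Tfrc, the transferrin receptor, had differences of 0.62 (SE 0.24, adjusted p = 0.294) and 0.64 (SE 0.24, adjusted p = 0.368), and 0.63 averaged over genotypes (SE 0.17, adjusted p = 0.0571). None of the 7 genes of erythropoietin signalling, the 6 of iron and haem handling and the 8 of reticulocyte maturation was called by limma in any comparison.

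Counted together, 77 of 82 further erythroid genes listed were measured. In WT mice 1 rose and 1 fell on starvation (Ldb1 and Slc25a37), in KO mice 0 were called by limma, and in the averaged comparison 3 rose and 4 fell, which is 9.09% of the 77 beside 5.16% of all genes. Leaving out 1 array gave between 3 and 9 averaged calls (3 without KO fed F5, KO starved S5 or KO starved S6), and the narrow arrays alone gave 3 while 2.89% of all genes were called. The count was 11 in wide arrays, 16 with array spread as a block and 37 with array weights, where 5.99%, 10.8% and 45.8% of all genes were called. The averaged calls were Ldb1, Epb4.1 and Blvrb upward and Slc25a37, Abcb10, Nfe2 and Tspan33 downward. Of these 7, 4 (Nfe2, Epb4.1, Blvrb and Abcb10) each lost the call in 7 to 11 alternatives.

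Markers of other cells in liver tissue were read for comparison, 64 of 65 listed genes in 10 lists, and 0 were called by limma in any of the 7 comparisons. The marker that differed most in KO starvation among the most abundant of each list was Ppbp, the platelet basic protein, with values of 7.75, 7.24 and 7.39 in KO fed mice and 8.33, 9.39 and 8.66 in KO starved mice. Its difference was 1.33 in KO mice (SE 0.30, adjusted p = 0.0652) and 0.16 in WT mice, whose arrays read 7.15 to 8.26. Mean values of the 8 platelet genes, Ppbp included, were 6.27 to 6.42 in KO fed and 6.55 to 6.74 in KO starved mice, and 6.35 to 6.47 and 6.31 to 6.69 in WT fed and starved mice. The median difference of these 8 genes was 0.096 in KO mice, with 7 above 0, and 0.002 in WT mice, with 4 above 0. Mean values of neutrophil genes were 5.38 to 5.55 and 5.30 to 5.44 in KO fed and starved mice. KO starved S6 was the highest array for Ppbp as for Ahsp, Slc4a1 and Hba-a1. The part of platelet or blood content in these differences was not tested.

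The genes whose values over the 12 arrays were most like those of single members were found by Pearson's r, given as a description over arrays that share feeding state, genotype and spread. For Alas2 these were Gstm6 (r = 0.974), Fkbp4 (r = 0.972) and Adra1b (r = 0.967), with starvation differences in WT of -1.87, -0.98 and -1.40. For Car1 they were Akr1c6 (r = 0.972), Akr1c20 (r = 0.967) and Leap2 (r = 0.957), with 1 predicted gene model left out. For Hba-a1 they were Hba-a2 (r = 0.999), Mamdc2 (r = 0.908) and Slc17a8 (r = 0.899), and the difference of Slc17a8 in KO starvation was 1.64. For the mean of the 8 members, each less its own mean, the closest were Spc25 (r = 0.909) and Plekhf1 (r = 0.868), followed by Plekhb1, Asb4, Sult1c2, Gpx1, B3galtl and Lipc down to r = 0.806, with 2 predicted models left out. After each value was taken less its group mean they were Negr1 (r = 0.962), Car12, Pla2g4d, Tle6 and Armcx2 (r = 0.918).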

How the data were processed

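Each array was 1 mouse, grouped by the sample labels. The labels' protocols describe Trizol and RNeasy extraction of liver RNA and whole-transcript labelling. The authors deposited expression per probe set on the log2 scale. RMA, oligo and limma are named in the submitters' processing notes; no version, array model or annotation is given in the sources used here. RMA normalizes by quantiles, so a difference is relative to the rest of the array, and a low log2 value in the deposited table cannot be told from no expression.

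Of 28944 lines, the 5132 without a gene symbol were not tested. For 1683 symbols with several lines the line with the highest mean was kept, which left 20719 genes. The series matrix held the same 347328 values and gave no alternative. No value column lacked a sample. WT starved replicate 3 has an irregular title code, kept as labelled. limma 3.58.1 in R 4.3.3 (lmFit, eBayes) fitted 4 group means to all 12 arrays, with 7 contrasts, Benjamini-Hochberg adjustment over all genes and a threshold of 0.05. There were 8 residual degrees of freedom and 3.38 prior ones, and precision is limited by the number of arrays. The script was tested on simulated data. The 8 genes, the further lists and the tests were chosen with earlier results of these data known. Named were the 8 genes, listed erythroid genes that were called, globins, Alas1, Gata1, Epor, Epo and Tfrc, the most abundant marker of each cell type list, and the genes most like the members by Pearson's r, without predicted models; some genes the rule would name are not reported here. Cpox, Fech and Car2 were added by value after their values were seen. Promoters are from RefSeq (GRCm38.p6), and 5 of the 8 genes matched. Alternatives were the mean of a symbol's lines, a filter at the median, cyclic loess, array weights, median centring, and trend and robust eBayes. Others were only the groups compared, title number as a block, array spread as a block, array SD as a covariate and leaving out each array. Title number entered through limma's estimated correlation within blocks. Array spread, though called a block here, entered as a fixed covariate for wide or narrow. The split into 6 wide and 6 narrow arrays was made at the widest gap (0.0463) between their SDs, and fits within each kind were added after seeing the data. Each starved group held 1 narrow array and each fed group 1 wide array, so within a kind these groups had no replicate.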

Additional observations from a re-analysis of the deposited data

How the results depend on the processing

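Alas2 and Car1 kept their calls in the averaged starvation comparison in all 23 alternatives run, with differences from -1.49 to -1.15 and from -2.09 to -1.48. In WT starvation Alas2 stayed called in 22 of 24 alternatives and Car1 in 19, and in KO starvation Alas2 stayed called in 15 of 24. Array weights raised the number of members called to 3 in WT starvation, 6 in KO starvation, 2 between fed genotypes, 1 between starved genotypes, 2 for the interaction, 6 for averaged starvation and 2 for averaged genotype, while they called 27%, 36.9%, 6.12%, 0.0627%, 0.512%, 45.8% and 0.821% of all genes there. In WT starvation the count was 0 when only the groups compared were fitted (0.0531% of all genes) and 1 in narrow arrays (0.425%). In KO starvation it was 0 with trend and robust eBayes (0.767% of all genes), 3 with array spread as a block and 3 with array SD as a covariate (4.25% each) and 2 in wide arrays (1.41%), and averaged starvation had 5 in wide arrays (5.99%). Leaving out 1 array gave 1 to 2 calls in WT starvation, 0 to 2 in KO starvation, 0 to 2 between starved genotypes and 2 to 4 for averaged starvation, and the highest counts of the last 3 came without KO starved S5, when Ahsp and Slc4a1 were called. Leaving out 1 array moved no count for fed genotypes, the interaction or averaged genotype from 0. No called difference changed its sign, and 27 of 51 uncalled ones did in at least 1 alternative. The title number as a block (replicate block; consensus correlation 0.0226) changed no count of members called, with 2 in WT and 1 in KO starvation. Fitting only the groups compared gives no value for the interaction and the averaged effects. With 3 arrays a group and a median SE of 0.15, small differences between groups were not detectable, and the cause of these changes was not tested.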
